A study of Mus musculus with 8 samples.

Results

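Marco, Fabp1 and Fabp4 are genes of the macrophages that live in the alveoli, and they were selected on their log2 ratios, which were below 0 in Fra-2 transgenic lung while those of other macrophage genes were above it. Each gene had 1 named probe on the array, so the group is 3 of 20794 probes and 3 of 8741 named genes. Whether any of the 8498 unnamed probes belongs to these genes is unknown. The values that chose them are the ratios of transgenic over wild-type RNA on the same 8 arrays. These ratios are therefore given as a description, without a test.

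Arrays with a pair of dyes compared lung RNA of 4 male mice carrying a transgene for Fra-2, which is encoded by Fosl2, with lung RNA of wild-type males. All animals were 14 weeks old, on a mixed background of C57BL6 x CBA. For every transgenic mouse there were 2 arrays with the dyes exchanged. The other channel always held the same RNA pool of 4 wild-type males, which makes 1 control sample. The promoter that drives the transgene is not given in the sources used here, and no probe was named Fosl2, so the transgene itself could not be checked.

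Alveolar macrophages take up inhaled particles and used surfactant, and they depend on GM-CSF made by the alveolar epithelium and on the lipid-sensing nuclear receptor PPAR gamma. Marco is a class A scavenger receptor with a collagen-like domain that binds unopsonised particles and bacteria. Fabp1 and Fabp4 belong to the small cytosolic proteins that carry fatty acids. Fabp1 is best known from hepatocytes and enterocytes. Fabp4 is best known from adipocytes and capillary endothelium and is a target of PPAR gamma. Macrophages that arrive from blood monocytes or sit in the interstitium carry other genes, such as those of complement C1q.

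Ratios are given on the log2 scale as transgenic over pool, so -1 means that the transgenic lung gave 1 part for each 2 parts in the pool. This direction is likely only, from the order of the channels in the labels; with the opposite sign, lower and higher would exchange throughout. Gene names rest on an offset of 11 between annotation numbers and rows of the values. Over all numbers, probes of the same gene correlated at a Spearman rho of 0.224 at that offset over 4802 pairs, against at most 0.054 at the others of 121 offsets tried. Within 500 numbers of Marco the values were 0.238 and 0.134, and near Fabp4 they were 0.294 and 0.116. Near Fabp1 they were 0.15 and 0.16, so there the offset did not stand out and the name of Fabp1 is the least certain of the 3. Of the 8 arrays, the Cy3 array of mouse 4 spread most widely, with an SD of 0.768 against 0.413 to 0.457 on the other 7.

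The stretch of 250 bases before the transcript start is shown for Marco and Fabp1, because Fra-2 is an AP-1 factor and because the letters that AP-1, PU.1 and PPAR factors recognise can be searched there. The sequences are from RefSeq, build GRCm38.p6, which held 2 of the 3 genes; Fabp4 had no entry. Marco lies on the minus strand at chr1:120505025-120505274 and Fabp1 on the plus strand at chr6:71199629-71199878. Both are printed 5′ to 3′ along the gene, with matches to the searched letters in capitals.
Marco: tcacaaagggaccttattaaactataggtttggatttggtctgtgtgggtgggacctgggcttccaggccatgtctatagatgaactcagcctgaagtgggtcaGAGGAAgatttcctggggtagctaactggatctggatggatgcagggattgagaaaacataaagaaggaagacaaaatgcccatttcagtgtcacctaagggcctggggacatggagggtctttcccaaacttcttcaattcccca
Fabp1: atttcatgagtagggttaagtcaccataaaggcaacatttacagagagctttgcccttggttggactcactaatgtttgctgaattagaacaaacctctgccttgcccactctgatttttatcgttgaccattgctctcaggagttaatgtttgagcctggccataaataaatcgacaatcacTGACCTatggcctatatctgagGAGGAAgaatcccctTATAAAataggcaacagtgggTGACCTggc
The AP-1 letters TGANTCA were in neither stretch, and they were in 6.75% of 32851 such stretches of mouse genes, searched on both strands. TGACGTCA, the cAMP response element, was also in neither (1.55% of all). GAGGAA, the core of a PU.1 box, had 1 match in each: it begins at position -146 of Marco and -45 of Fabp1, counted from the transcript start. It was in 23.3% of all stretches. AGGTCA, the motif of nuclear receptors, had 2 matches before Fabp1, both as TGACCT, beginning at positions -67 and -9, and 0 before Marco (14% of all). The direct repeat of that motif with 1 base between, to which PPAR factors bind, had no exact match in either (0.0335% of all). Repeats with a changed letter were not searched. In Fabp1 the TGACCT at -67 is followed, after 1 base, by tggcct, which differs from it by 1 letter. Such near repeats were not counted over all stretches or sought before Marco, so this one cannot be called particular to Fabp1. Fabp1 had TATAAA at position -30, searched on the printed strand (7.59% of all). No match overlapped another. These are matches of letters in a short window and say nothing of binding.

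Marco was the lowest of the 8692 genes measured in all 4 mice, by its mean. Genes with several probes were averaged for this order, and 1 probe of Car3 taken alone was lower, at -3.29. Its log2 ratios were -2.14 and -2.59 in mouse 1, with the transgenic RNA in Cy5 and in Cy3. They were -2.44 and -2.33 in mouse 2, -2.66 and -3.26 in mouse 3, and -2.40 and -2.52 in mouse 4. Every array was more than 2 units below 0, and mouse 3 was the lowest. The mean was -2.54 ± 0.28 (SD, n = 4 mice), which is 5.82-fold lower than the pool, or 17.2% of its level. Mouse by mouse the fold lay between 5.14 and 7.79.

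Fabp4 was next in size, at place 32 from the lowest. Its ratios were -0.88 and -1.04 in mouse 1, again in Cy5 and then in Cy3, and -1.85 and -2.12 in mouse 2. They were -0.38 and -0.90 in mouse 3 and -0.70 and -1.44 in mouse 4. All 8 arrays were below 0, and both arrays of mouse 2 were lower than any array of the other mice. The mean was -1.16 ± 0.58 (SD, n = 4 mice), or 2.24-fold lower, with 1.56-fold in mouse 3 and 3.96-fold in mouse 2. The mean without mouse 2 was -0.89.

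Fabp1 was at place 104 from the lowest. Its ratios were -1.10 and -1.15 in mouse 1, -0.69 and -0.92 in mouse 2, -1.45 and -0.58 in mouse 3, and -0.50 and -0.72 in mouse 4. All 8 arrays were below 0, with the widest gap between the 2 arrays of mouse 3. The mean was -0.89 ± 0.23 (SD, n = 4 mice), or 1.85-fold lower, and the mice ranged from 1.52-fold to 2.18-fold.

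A value below 0 on all 8 arrays was found for 17% of the 8645 genes with 8 values, and 18.4% of the 8692 genes were called lower by limma with Benjamini-Hochberg adjustment. All 3 genes have the first property, but it follows from how they were chosen. The median over all named genes was -0.01.

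**Figure D1:**
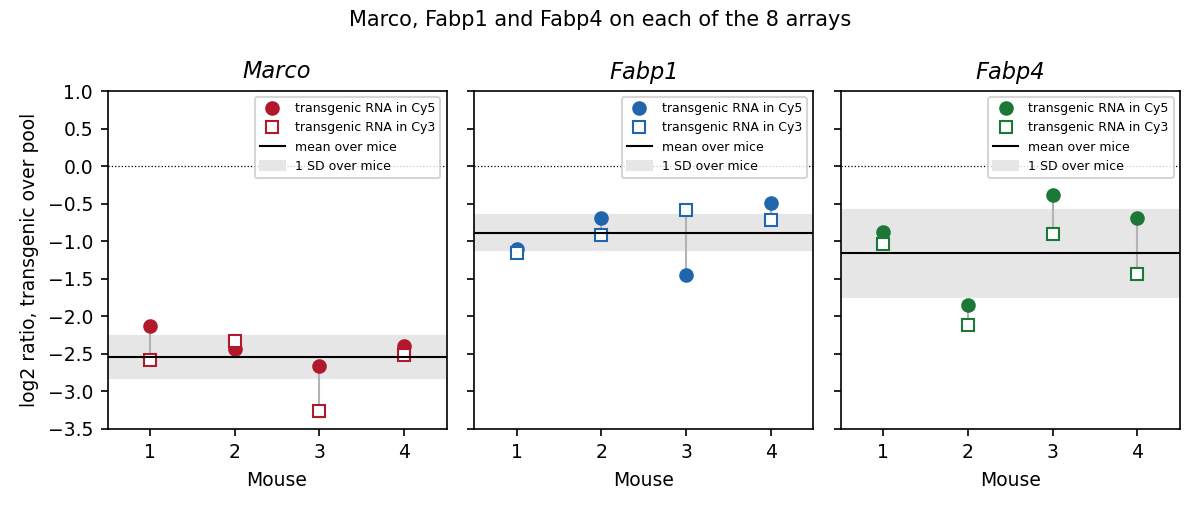
log2 ratio of transgenic lung over the wild-type pool for Marco, Fabp1 and Fabp4 on each array, by mouse; circles have the transgenic RNA in Cy5 and squares in Cy3, the line is the mean over 4 mice and the band 1 SD to each side. Marco lies between -3.26 and -2.14 on all arrays, and mouse 2 stands lowest for Fabp4.

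The order of the mice differed between the 3 genes. Marco was lowest in mouse 3 and Fabp4 in mouse 2, while Fabp1 was lowest in mouse 1. Mouse 3, with the lowest Marco, had the highest Fabp4. Marco was below Fabp1 in 4 of 4 mice, with differences of -1.95 to -1.23. It was below Fabp4 in 4 of 4 mice as well, with a difference of -0.40 in mouse 2 and -2.32 in mouse 3. Fabp4 was below Fabp1 in mice 2 and 4 and above it in mice 1 and 3, with a mean difference of -0.28 ± 0.70 (SD, n = 4 mice), so these neighbours in the order did not differ beyond their spread. With 4 mice no correlation between the genes is given.

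Whether the mice differed from each other was tested separately, since the choice of genes did not use it. The limma F test compares the spread between mice with that between the 2 arrays of a mouse, with the dye as covariate. For Fabp4 F was 18.7, and the limma adjusted p was 0.0768 over 20392 probes, which misses the threshold of 0.05. Adjusted over the 8645 named genes, an alternative added after the data were seen, it was 0.0366. Without mouse 4 the adjusted p over probes was 0.0234, and without mouse 2 it was 0.558. For Marco the limma adjusted p was 0.352 (F = 3.71) and for Fabp1 it was 0.593 (F = 1.28). In simulated data this test called 0% of probes shifted by 1 log2 unit in 1 mouse and 58% of those shifted by 2. A miss at such sizes therefore does not show that the mice were alike. Of all probes 0.986% passed this limma test, and of named genes 2.78%.

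The dye made a smaller difference than the distance of the mean from 0 in each of the 3 genes. Fabp4 was higher with the transgenic RNA in Cy5 than in Cy3 in 4 of 4 mice, by 0.42 ± 0.26 (SD, n = 4). Its limma adjusted p was 0.172, and its unadjusted limma p was 0.0181. Marco was higher in Cy5 in 3 of 4 mice, by 0.27 ± 0.32 on average (limma adjusted p = 0.292). For Fabp1 the mean difference was -0.09 ± 0.52 (limma adjusted p = 0.784), and mouse 3 alone ran against the other 3. By limma 1 of 20392 probes had a dye effect at this threshold (0.0049%), while 4912 (24.1%) had an unadjusted p under 0.05.

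Other genes of the same macrophages moved both ways. Of 50 genes in an alveolar macrophage list, 28 were measured. Without Marco, Fabp1 and Fabp4, 25 remained, of which 9 rose, 5 fell and 11 did not pass limma's test (adjusted p under 0.05; 31.9% of all named genes were called, 13.5% higher and 18.4% lower). Their median was 0.12. The rises were led by Chil3, a chitinase-like protein (4.43 ± 0.41), and Ctsk, the protease cathepsin K (2.72 ± 0.67). Mrc1, the mannose receptor CD206 (1.24 ± 0.27, limma adjusted p = 0.000898), and Csf2rb, the beta chain of the GM-CSF receptor (0.94 ± 0.19, limma adjusted p = 0.00115), rose as well. Csf2rb2, which encodes the related IL-3 receptor chain, rose by 0.84 ± 0.18. Cd9, a tetraspanin, was called at 0.60 ± 0.50, a call lost without mouse 2, 3 or 4 and on the Cy5 arrays alone, where its mean was -0.01. It was also lost with mouse as a random block (limma adjusted p = 0.116, or 0.0754 with a dye term), with placeholders kept and without the Cy3 array of mouse 4. Serpinb1a (0.49 ± 0.26) lost its call without mouse 1 (limma adjusted p = 0.0555).

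The 5 further genes of the list that fell were led by Cidec, a lipid droplet protein, at -1.55 ± 0.57 (limma adjusted p = 0.00241). Lpl, lipoprotein lipase, fell by 0.71 ± 0.34 over 3 probes (limma adjusted p = 0.00723), with probe means between -0.78 and -0.60. Tgfbr2, a TGF-beta receptor, was at -0.52 ± 0.15, the neuropeptide gene Gal at -0.52 ± 0.13 and Perp at -0.49 ± 0.17. Cidec and Lpl, both genes of lipid storage and uptake, also stand in the adipocyte list. Values near 0 were found for Fabp5, the epidermal fatty acid binding protein (-0.04 ± 0.39), and for Klhl6 (0.02 ± 0.27). The defining genes Pparg, Siglecf, Itgax, Car4 and Ear2 had no named probe and were not analysed here. A fall was therefore measured for Marco, Fabp1, Fabp4 and the 5 genes above, and not for most measured genes of the list. Without the 3 chosen genes, 5 lower of 25 is a share near the 18.4% called lower among all named genes.

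Of 23 measured genes shared by all macrophages, 13 rose (56.5%, against 13.5% of all named genes) and 2 fell (8.7% against 18.4%; median 0.45). Ctss, the gene of cathepsin S (1.22 ± 0.51), Lgals3, galectin 3 (1.20 ± 0.58), Psap, prosaposin (1.17 ± 0.52), and Laptm5 (0.96 ± 0.30) led them. The 2 lower calls were Lamp1 (-0.36 ± 0.26) and Lamp2 (-0.35 ± 0.23), both lysosomal membrane proteins. Each lost its call when single mice were left out: Lamp1 without mouse 2, 3 or 4 and Lamp2 without mouse 1, 2 or 4 (limma adjusted p up to 0.138 and 0.124). Of 23 measured genes of recruited and interstitial macrophages, 15 rose (65.2%) and 3 fell (13%), with a median of 0.80. Retnla (5.96 ± 0.46), the chemokine genes Ccl8 (4.59 ± 0.87) and Ccl9 (3.11 ± 0.81), and Gpnmb (2.39 ± 1.48) led these. The 3 that fell were Selenop (-0.81 ± 0.36), the scavenger receptor gene Stab1 (-0.42 ± 0.24) and Slco2b1 (-0.32 ± 0.15). Selenop missed the threshold on Cy3 arrays alone (limma adjusted p = 0.121). Without mouse 2, 1 lower call was left; Slco2b1 was also lost without mouse 1 or 3, and its probes were at -0.74 and 0.10. In whole lung RNA, fewer cells of a type and less RNA per cell cannot be told apart.

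**Figure D2:**
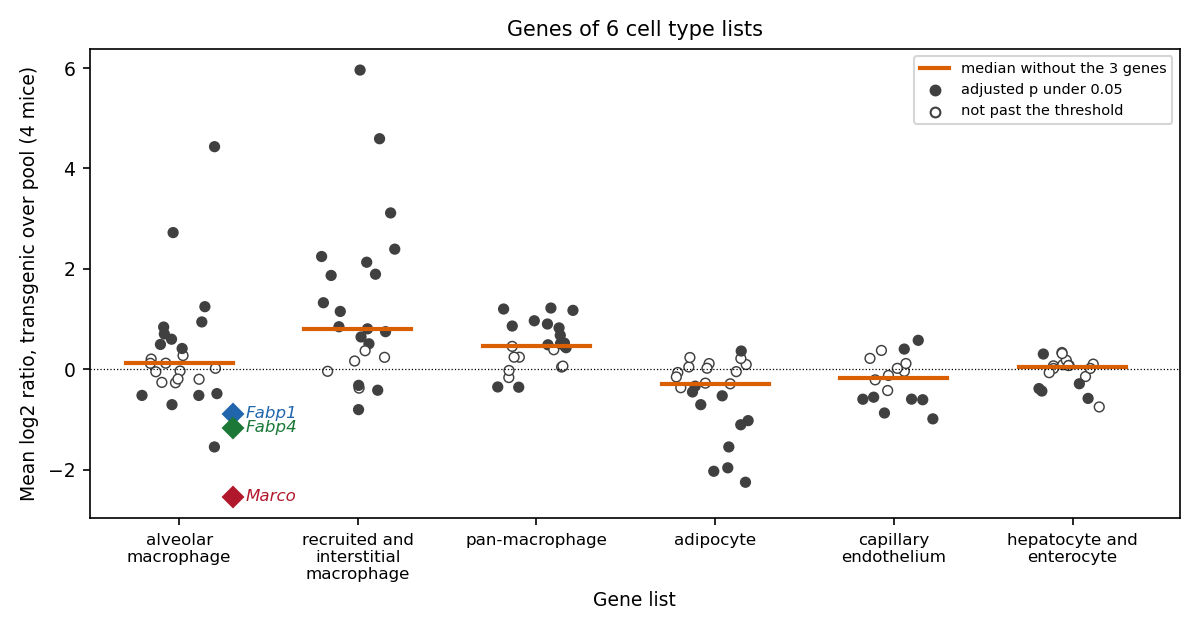
Mean log2 ratio over 4 mice for each measured gene of 6 cell type lists; filled circles passed limma's adjusted p under 0.05, bars are medians without Marco, Fabp1 and Fabp4, and diamonds are these 3 genes. The alveolar macrophage list spreads from -2.54 for Marco to 4.43 for Chil3, while the pan-macrophage median is 0.45.

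The 3 genes were chosen for ratios below 0 beside macrophage genes above it, so a difference from the macrophage medians follows from the choice. Its size in each mouse is given as a description. Marco minus the pan-macrophage median was -3.20, -2.61, -3.57 and -2.71 in mice 1 to 4, a mean of -3.02 ± 0.45 or 8.12-fold. Against the recruited and interstitial list it was -3.38 ± 0.63. For Fabp4 the difference from the pan-macrophage median was -2.21 to -1.25 (mean -1.64 ± 0.45), and for Fabp1 it was -1.96 to -0.86 (mean -1.37 ± 0.51). The pan-macrophage median was 0.84 in mouse 1 and 0.61 in mouse 3, and 0.22 and 0.25 in mice 2 and 4. The mice with high pan-macrophage medians were 1 and 3, which had the lowest Fabp1 and the highest Fabp4. Marco differed little between mouse 1 (-2.36), with the highest median, and mouse 2 (-2.39), with the lowest.

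**Figure D3:**
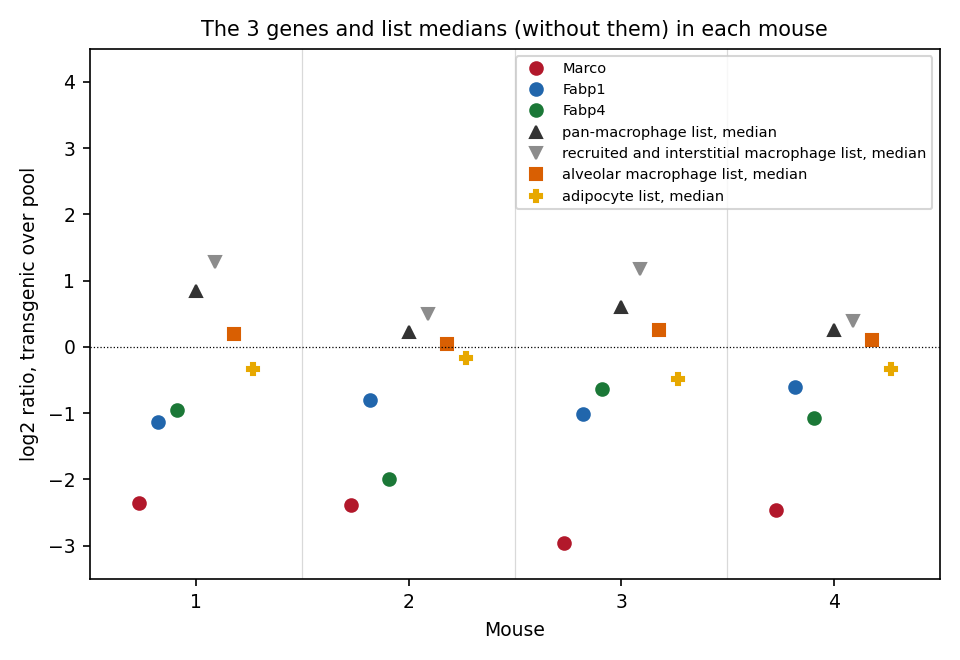
log2 ratio of transgenic lung over the pool in each of the 4 mice for Marco, Fabp1 and Fabp4 (circles, mean of 2 arrays) and the medians of 4 gene lists computed without these genes (other symbols). All 3 genes lie below every list median shown in each mouse, and the macrophage medians are highest in mice 1 and 3.

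Fabp4 and Fabp1 are also genes of other cells, so the lists of those cells are given beside them. Of 23 measured adipocyte genes, 10 fell and 1 rose (median -0.29), led by Car3 (-2.25 ± 0.65), Adipoq (-2.03 ± 0.40), Thrsp (-1.97 ± 0.29) and Cidec. The shares were 43.5% lower and 4.35% higher, against 18.4% and 13.5% of all named genes. Car3 had probes at -3.29, -2.01 and -1.46. The adipocyte medians of mice 1 to 4 were -0.33, -0.16, -0.48 and -0.33. Mouse 2, with the lowest Fabp4, thus had the highest adipocyte median, although Adipoq was lowest there at -2.35. Fabp4 was below the adipocyte median in 4 of 4 mice, with differences from -1.82 in mouse 2 to -0.16 in mouse 3. The fat cell genes Plin1 (0.11) and Lipe (0.21) did not pass.

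Of 16 measured genes of capillary endothelium, 6 fell and 2 rose (median -0.17). These are 37.5% lower and 12.5% higher, against 18.4% and 13.5% of all named genes. Icam2 (-0.99 ± 0.48), the endothelin receptor gene Ednrb (-0.87 ± 0.33), Eng (-0.61 ± 0.29) and Flt1 (-0.60 ± 0.33) fell. Ednrb had probes at -1.56 and -0.19 and Flt1 at -1.10 and -0.10, of which the second did not pass in either gene. Sox17, an endothelial transcription factor gene (0.57 ± 0.17), and Ramp2 (0.40 ± 0.22) rose, and Ramp2 lost its call without mouse 1 or 2 (limma adjusted p up to 0.0871) and on the Cy3 arrays alone. The endothelial medians were -0.05, -0.37, 0.10 and -0.50 in mice 1 to 4. Fabp4 was lower than these medians in 4 of 4 mice, with differences of -1.62 to -0.57. The part of fat or endothelium in the ratio of Fabp4 was not tested.

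For Fabp1, the list of hepatocytes and enterocytes had 18 measured genes, of which 4 fell and 1 rose, with a median of 0.04. These are 22.2% lower and 5.56% higher, against 18.4% and 13.5% of all named genes, so the share that fell was near that of all genes. With 1 mouse left out the lower calls numbered 1 to 4. The albumin gene Alb was at 0.07 and the villin gene Vil1 at 0.07. The 4 that fell were Apoc1 (-0.58 ± 0.38), the intestinal transcription factor gene Cdx2 (-0.44 ± 0.19), Apoa1 (-0.39 ± 0.25) and Trf (-0.29 ± 0.12, with probes at -0.52 and -0.07). Each of them lost its call without at least 1 mouse (limma adjusted p up to 0.0538 to 0.108). The medians of mice 1 to 4 lay between -0.12 and 0.15, and Fabp1 was below them in 4 of 4 mice. The ratio of Fabp1 was 1.85-fold lower than the pool and 1.87-fold lower than this list. The part of such cells in it was not tested.

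Within its family, Marco had the lowest ratio. Of 13 measured genes of the scavenger receptor list, Mrc1 was called higher, and no other was in this fit. Of the 12 genes other than Marco, 1 was called higher and 4 lower, against 13.5% and 18.4% of all named genes. Marco aside, Ager, the RAGE receptor of type 1 alveolar cells (-0.78 ± 0.23), the class A genes Scara3 (-0.71 ± 0.20) and Scara5 (-0.62 ± 0.34), and Stab1 fell. Scara5 had probes at -1.41 and 0.16, and it missed the threshold on the Cy5 arrays alone. Stab1 missed it without mouse 2 (limma adjusted p = 0.0685). Msr1, the class A receptor that alveolar macrophages carry beside Marco, was at 0.12 ± 0.18 (limma adjusted p = 0.345) as the mean of probes that disagreed. Of these, 1 was at 0.87 ± 0.27 and the other at -0.64 ± 0.25, both past the threshold over probes (25.7% of all probes were), so no direction is given for it. Scarb1, a receptor for high-density lipoprotein, was at 0.54 ± 0.51 (limma adjusted p = 0.0524, and 0.0222 to 0.166 with 1 mouse left out), and Cd5l at 0.24 ± 0.29. Colec12 (-0.18), Scarf2 (-0.15), Scarb2 (-0.09) and Lrp1 (0.001) did not pass either.

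Among fatty acid and retinoid binding proteins and transporters, Fabp4 and Fabp1 were the lowest of 17 measured. The other Fabp genes lay closer to 0. Fabp3, the heart type protein, was at -0.30 ± 0.22 over 3 probes (limma adjusted p = 0.0513, and 0.018 to 0.163 with 1 mouse left out), of which 1 gave -0.88 and the others -0.14 and 0.10. Fabp9, of testis, was at 0.004 ± 0.20. Fabp6, the bile acid carrier of the ileum, was called higher at 0.28 ± 0.16, a call that was lost without any 1 of the mice (limma adjusted p up to 0.135). Crabp1 (0.37 ± 0.10) and the transporter gene Slc27a1 (0.32 ± 0.13) rose and Dbi fell (-0.26 ± 0.06). Crabp1 missed the threshold on Cy3 arrays alone (limma adjusted p = 0.075). Slc27a1 was lost without mouse 1, 3 or 4 and Dbi without any 1 of the mice (limma adjusted p up to 0.102 and 0.105). With the 8 arrays fitted and mouse as a random block, Dbi (limma adjusted p = 0.104, or 0.081 with a dye term) and Fabp6 (0.0602) lost their calls as well. Rbp4, which carries retinol in blood, was at 0.74 ± 0.88 and Crabp2 at 0.18 ± 0.39. Scp2 (-0.29), Rbp7 (-0.25), Slc27a2 (-0.25), Acbd3 (-0.10), Slc27a5 (-0.06) and Slc27a4 (0.03) did not pass.

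**Figure D4:**
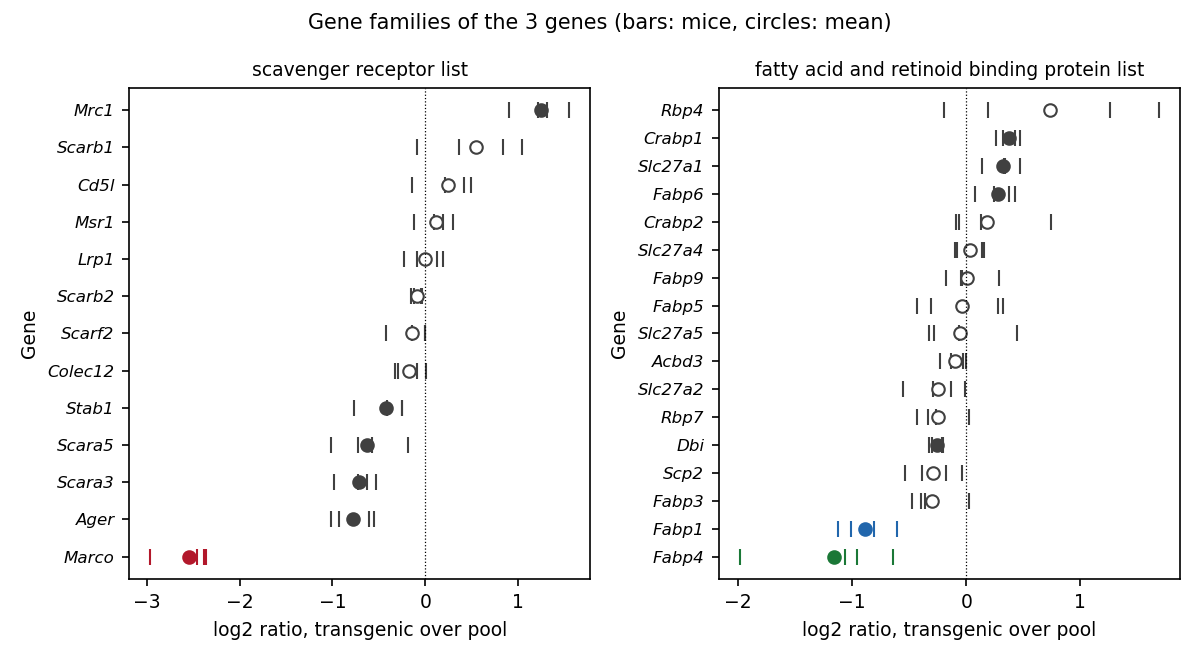
log2 ratio of transgenic lung over the pool for the measured genes of the scavenger receptor list (left) and the fatty acid and retinoid binding protein list (right); bars are the 4 mice and circles their mean, filled where limma's adjusted p was under 0.05. Marco is lowest in the left panel at -2.54, and Fabp4 and Fabp1 are lowest in the right panel at -1.16 and -0.89. Marco, Fabp1 and Fabp4 were chosen by these ratios, so their filled circles are not the outcome of a test.

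The regulators on which alveolar macrophages depend were examined through lists of PPAR gamma targets and of GM-CSF and surfactant handling. Of 23 PPAR gamma target and lipid droplet genes other than Fabp4, 10 fell and 2 rose (median -0.15). Of all named genes, 18.4% were called lower and 13.5% higher. Adipoq, Cidec, Retn, the resistin gene (-1.03 ± 0.22, limma adjusted p = 0.00113), and Lpl fell. These 4 named genes also stand in the adipocyte list, which had 10 lower genes of 23. The other lower genes shared with that list were Plin4 (-0.53 ± 0.10), Dgat2 (-0.45 ± 0.23) and Pnpla2 (-0.34 ± 0.23). The part of fat in these ratios was not tested. G0s2 (-0.92 ± 0.12), Angptl4 (-0.81 ± 0.34) and Nr1h3 (-0.30 ± 0.12) fell as well and are not in the adipocyte list. Dgat1, an enzyme of triglyceride synthesis (0.57 ± 0.27), and the receptor gene Ppard (0.52 ± 0.26) rose. Plin2, the lipid droplet protein of macrophages, was at 0.27 ± 0.35, with probes at 0.96 and -0.42. For GM-CSF and surfactant, 3 of 14 genes rose and 2 fell (median 0.035). These are 21.4% higher and 14.3% lower, against 13.5% and 18.4% of all named genes. Csf2rb, Csf2rb2 and Sftpb, a surfactant protein gene (0.37 ± 0.19), rose. Stat5b, a signal transducer below the GM-CSF receptor (-0.72 ± 0.27), and Lpl fell. Csf2ra, the gene of the other GM-CSF receptor chain, was not measured. Sftpb lost its call without mouse 1 or 2 (limma adjusted p up to 0.0916). Among the other cells of the alveoli, 5 of 12 neutrophil genes rose and 4 fell (median 0.10), 5 of 10 dendritic cell genes rose and 1 fell (median 0.38), and 3 of 9 genes of type 2 epithelium, which makes surfactant, rose and 0 fell (median 0.003). The shares higher and lower were 41.7% and 33.3% for neutrophils, 50% and 10% for dendritic cells and 33.3% and 0% for type 2 epithelium. With 1 mouse left out, 3 to 4 neutrophil genes rose and 2 to 4 fell. The lowest counts of higher genes were 2 for the dendritic cell list, without mouse 1 or 3, and 0 for type 2 epithelium, without mouse 1.

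Genes whose pattern was most like each member were named by the smallest root mean square difference over the 8 arrays, among the 8645 genes with 8 values. For Marco the 5 nearest were Thrsp (0.77), Pcolce2 (0.836), Adipoq (0.837), the myoglobin gene Mb (0.84) and Igfbp3 (0.852). All 5 have means between -2.03 and -1.81. For Fabp4 they were Hba-x (0.329), C1qtnf6 (0.37), Tmem65 (0.439), the ATP citrate lyase gene Acly (0.441) and Qk (0.474). Hba-x and C1qtnf6 were lowest in mouse 2, as Fabp4 was, at -1.40 and -1.34. For Fabp1 they were Chpt1, an enzyme of phosphatidylcholine synthesis (0.23), Glis2 (0.233), Kcnj3 (0.267), Mfsd6 (0.273) and Cmya5 (0.274). The members lay further from each other, at 0.763 for Fabp1 and Fabp4, 1.55 for Fabp4 and Marco and 1.72 for Fabp1 and Marco. Arrays of a mouse share RNA, and the measure mostly follows the size of the ratio.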

How the data were processed

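RNA of whole lung was made into cDNA carrying Cy3 or Cy5 by indirect labelling, per the labels' protocols. The authors deposited log2 ratios, 1 per probe and array; how images were read, corrected and normalized and the genome build used are not given in these sources, and no spot intensities were used, so signal over background is unknown. Array medians lay between -0.093 and 0.008. Values beyond 10 in size (498) were set to missing, beside 706 missing as deposited; usable values numbered 20585 to 20729 per array. Centring and any offset by the authors stay unknown.

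Annotation numbers up to 20237 were moved by 11, which named 12296 probes of 8741 genes and left 8498 unnamed; symbols follow RefSeq, GRCm38.p6. Genes were averaged over probes and mice over their 2 arrays. Ratios were tested against 0 with limma 3.58.1 (R 4.3.3; 3 residual and 4.28 prior degrees of freedom, two-sided, Benjamini-Hochberg, adjusted p under 0.05), for 8692 genes. The pool's own spread is left out, and 4 mice limit the precision. Tables used Python 3.11.15, pandas 2.3.3 and numpy 2.4.6, and figures matplotlib 3.10.9. The steps were tested on simulated data, with shifts of 1 or 2 log2 units. The test against 0 called 79% and 94% of the shifted probes. The F test between mice called 0% and 58% of those shifted in 1 mouse.

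The members and the 13 lists, of which 196 of 317 genes had a named probe, were chosen with earlier results of these data known. Named genes were the members, the 5 genes most like each, up to 4 per list and direction past the threshold, and the measured genes of the scavenger receptor and binding protein lists. Perp, Gal, Tgfbr2, Klhl6, Plin1, Lipe, Plin2, Alb, Vil1 and others outside this rule were named after their values were seen. Alternatives left out mice, dye orientations or 1 array, or changed centring, scaling, blocking, placeholders, filters or the average over probes.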

Additional observations from a re-analysis of the deposited data

Results flagged for a closer look

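Of 111 genes named or listed, 3 had 1 mouse whose gap to the nearest of the others was above Dixon's critical share of the whole range; chance alone picks out about 1 in 20. For Marco it was mouse 3, the lowest at -2.96 against -2.46 to -2.36 in the others (0.837). For Lamp1 it was mouse 1, the highest at 0.03 against -0.51 to -0.47 (0.918), and for S100a8, a calgranulin gene of neutrophils, also mouse 1, at -0.11 against -1.55 to -1.32 (0.835).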

How the results depend on the processing

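Marco, Fabp1 and Fabp4 stayed below 0 and within 1 SD of their means under all 14 alternatives, at -2.68 to -2.40, -0.98 to -0.81 and -1.37 to -0.89. Leaving out 1 mouse at a time gave -2.60 to -2.40, -0.98 to -0.81 and -1.34 to -0.89. It gave 1557 to 2109 genes called, against 2774 with all mice, and 2547 to 4064 probes, against 5302 (1557 and 2547 without mouse 1; 1725 and 2834 without mouse 2). The Cy3 arrays alone gave 3190 probes. Differences between mice were called for 201 probes, for 0 to 495 with 1 mouse left out (0 without mouse 1 or 3, 1 without mouse 2) and for 84 with no dye covariate. The adjusted p of Fabp4 there was 0.0234 to 0.558 with 1 mouse left out and 0.0366 over named genes. Dye effects were called for 0 to 1 probes.

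Counts of higher genes in the 3 macrophage lists stayed within 1.5 times under every alternative. Lower recruited macrophage genes numbered 1 to 3 with 1 mouse left out, and lower pan-macrophage genes 0 to 1. The latter were 0 on the Cy3 arrays alone, 1 with placeholders kept and 1 with the median over probes. Crabp2 reversed on the Cy5 arrays alone (-0.43), as did Cd9 (-0.01), which was called higher in the alveolar macrophage list at 0.60. Of 81 other genes past the threshold, 52 kept it under all alternatives; the cause of other losses was not tested. Without the Cy3 array of mouse 4, a setting chosen after seeing the data, the alveolar macrophage list gave 8 higher and 8 lower. With all arrays it gave 9 and 8, and both counts of lower genes include Marco, Fabp1 and Fabp4. No paired analysis was possible because the labels give 1 group against 1 pool. Depth does not apply to arrays, and signal over background is unknown.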
